A study of Mus musculus with 43 samples.

Results

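The epididymal fat pad, a visceral white adipose depot next to the epididymis, was profiled by RNA-seq and compared between male mice on a high-fat diet that received SZ-A at 400 mg/kg/day (SZ-A 400) and male mice on a standard diet (SD). SZ-A is the alkaloid fraction of Ramulus Mori (Sangzhi), the mulberry twig. The question was which changes made by the high-fat diet remained at this middle dose. The comparison used 6 SZ-A 400 libraries (replicates 1, 2, 4, 5, 7 and 8) and 6 SD libraries (replicates 1, 2, 3, 5, 6 and 7), 12 of the 43 libraries of the study. The high-fat chow held 60% fat and the standard chow 10% fat, and SD mice received no SZ-A. The diet alone was read from 10 libraries of mice on the 60% fat chow without SZ-A (HFD). Replicates 3 and 6 of SZ-A 400 and replicate 4 of SD were left out because they carried RNA of other tissues. Markers of duct and squamous epithelium summed to 10715 and 29152 CPM (counts scaled to the library total) in the SZ-A 400 pair, and markers of ciliated epithelium to 1313 CPM in SD replicate 4. In the 12 libraries kept, those sums were at most 89.9 and 49.4 CPM, both in SD replicate 1. The labels call the libraries replicates without naming animals or litters, and p-values therefore reflect spread among libraries, which may be technical. The labels used here give no clock hour of collection.

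Epididymal fat stores triglyceride and takes it up or releases it under the control of insulin and catecholamines. When it is overfilled in obesity, macrophages gather around stressed adipocytes, the collagen scaffold thickens, leptin output rises and insulin signalling genes are often reduced. The tissue also holds a circadian clock, in which the activators BMAL1 (Arntl) and CLOCK or NPAS2 drive their own repressors and output factors. The endoplasmic reticulum of its cells folds secreted proteins with a set of chaperones that is raised when unfolded protein builds up.

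The 12 libraries held 34700000 to 41300000 counts each, and the 10 HFD libraries 36600000 to 44300000. Adipocyte markers were high in each of the 12, with Adipoq at 1610 to 4300 CPM and Plin1 at 892 to 2250 CPM. Wt1 and Upk3b, which mark the mesothelial cover of visceral fat, were present at 2.74 to 10.9 CPM and 4.17 to 43.2 CPM. The libraries fell into 2 sets that the labels do not mention, divided by the part of all counts that fell on snRNA, snoRNA, scaRNA and miRNA genes (0.00231% to 0.00544% in set 1 and 0.00744% to 0.0191% in set 2). The 6 SZ-A 400 libraries were 4 of set 1 and 2 of set 2, the 6 SD libraries 2 and 4, and the HFD libraries 5 and 5. The set was a term in the fit unless stated, and it was itself linked to 6217 genes higher and 5438 lower in set 2. Sums over marker lists are CPM without further scaling. Unless stated, other levels are normalised CPM, differences are log2 fold changes with their standard error (SE), and p-values are from edgeR's quasi-likelihood test, Benjamini-Hochberg adjusted over 20054 genes. A gene was called at an adjusted p under 0.05.

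Compared with SD, 1800 genes were higher at SZ-A 400 (8.98% of those tested) and 1177 were lower (5.87%). Of these, 943 rose and 226 fell at least 2-fold. The diet alone gave more calls, with 4835 genes higher in HFD than in SD (24.1%) and 3953 lower (19.7%). HFD had 10 libraries and SZ-A 400 had 6, and the median SE against SD was 0.235 for HFD and 0.266 for SZ-A 400. Both comparisons used the same SD libraries, so the shared calls below are counts and not a test. Of the diet rises, 1719 were also called higher at SZ-A 400, which is 35.6% of the diet rises and 95.5% of the SZ-A 400 rises. Of the diet falls, 1057 were also called lower, which is 26.7% of the diet falls and 89.8% of the SZ-A 400 falls. The other 3116 diet rises were not called at SZ-A 400, and 3054 of them still had a positive fold change. Of the 2895 diet falls not called, 2794 still had a negative one. Tef, a clock output factor, was the 1 diet gene called in the opposite direction to its diet change. Of the SZ-A 400 calls, 81 rises and 120 falls were not diet calls of the same direction.

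A missed call does not show that a diet change was gone, so SZ-A 400 was also compared with HFD. There 38 genes were higher (0.189%) and 23 lower (0.115%), 61 in all, and 3280 genes had an unadjusted p under 0.05. For 48 of the 61, the difference ran against a called diet change, and the other 13 were not called in HFD against SD. The median SE over all genes was 0.27 on the log2 scale against SD and 0.23 against HFD. More genes were called against SD in library set 1 than in set 2. In set 1 alone, with 4 against 2 libraries, 1906 genes were higher and 1520 lower, whereas in set 2 alone, with 2 against 4, edgeR called 0 genes. In a fit of all 39 libraries with a separate fold change for each set, edgeR called 1373 higher and 1206 lower in set 1 and 47 and 13 in set 2. In set 2 alone 1338 genes had an unadjusted p under 0.05, DESeq2 called 60 higher and 36 lower, and limma voom called 24 and 9. The median fold change of the 1800 rises was 0.71 in set 2 and 1.34 in set 1, and that of the 1177 falls -0.33 and -0.72. Both sets helped to choose these genes, so their signs there are no check. In the same fit, testing whether the 2 sets differed in fold change called 7 of 20054 genes, all with the more positive fold change in set 1. There 1951 genes had an unadjusted p under 0.05. With 2 SD libraries in set 1 and 2 SZ-A 400 libraries in set 2, so few calls do not show that the sets agreed. The 1800 rises numbered 974 without SZ-A 400 replicate 2 and 994 without SD replicate 2, and the shared rises 919 and 953. The 1177 falls numbered 386 and 749 without SD replicates 2 and 1, and 731, 619 and 692 without SZ-A 400 replicates 2, 4 and 5. The shared falls were then 336, 665, 660, 556 and 609 in the same order. The 61 calls against HFD became 20, 242, 35, 22 and 10 without SZ-A 400 replicates 1, 2, 4, 7 and 8, 37 without SD replicate 5, and 148 without HFD replicate 8, whose macrophage markers were the lowest of that group.

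**Figure D1:**
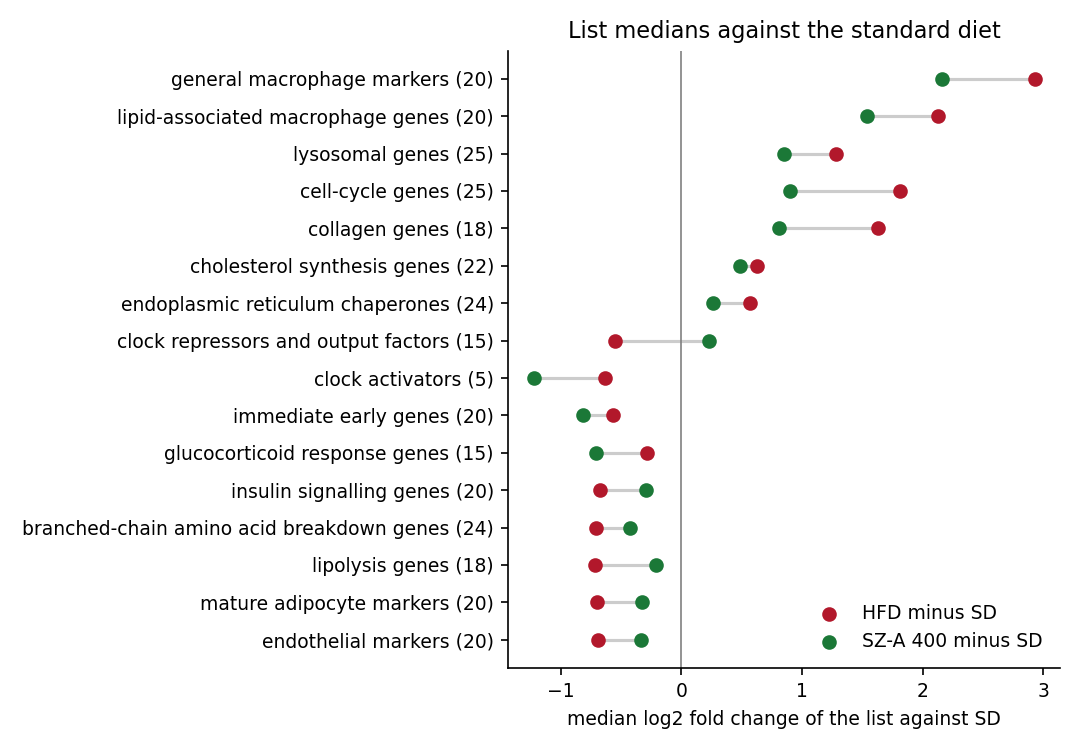
Median log2 fold change against SD of 16 of the 39 gene lists, picked for display, for SZ-A 400 (green) and HFD (red). The number of genes tested is in brackets. For 13 of the 16 lists drawn the SZ-A 400 median lay nearer to 0 than the HFD median. Among these 16, the clock repressors and output factors were the list with medians on opposite sides of 0. Some lists not drawn differed from this, such as the adipokines, whose SZ-A 400 median lay farther from 0 and on the opposite side.

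Most macrophage genes remained above SD at SZ-A 400. Of 20 general macrophage markers, 17 rose at SZ-A 400 and 0 fell, with a median log2 fold change of 2.16, against 18 rises and a median of 2.93 in HFD. The median of all genes was 0.01 and 0.00 in these comparisons. Itgax, the gene of CD11c on inflammatory macrophages (chromosome 7, 127728719 to 127749829 in the files' coordinates), ran 3.29 to 17.9 CPM (median 7.60) in SD and 40.8 to 596 CPM (median 207) at SZ-A 400. Each of the 6 SZ-A 400 libraries lay above the highest SD library, and the rise passed the test (log2 fold change 4.56, SE 0.81, adjusted p = 0.000465). HFD libraries ran 9.04 to 641 CPM (median 463), and SZ-A 400 did not differ from HFD by the test (log2 fold change -0.75, SE 0.63, adjusted p = 0.531). Adgre1, the gene of F4/80, ran 14.1 to 38.1 CPM (median 19.2) in SD and 47.3 to 444 CPM (median 209.6) at SZ-A 400 (log2 fold change 2.80, SE 0.70, adjusted p = 0.00703), again with no overlap. Ctss, a lysosomal protease of antigen-presenting cells, rose by 3.43 with adjusted p = 0.00131. Cd68, a lysosomal membrane protein of macrophages, rose by 3.22 (adjusted p = 0.00133). Ccl2, the chemokine that draws monocytes, was not called at SZ-A 400, at 3.48 to 28.0 CPM (median 10.1) against 3.35 to 15.1 CPM (median 6.10) in SD (log2 fold change 0.43, SE 0.54, adjusted p = 0.639), although it was called in HFD (log2 fold change 1.42, SE 0.49, adjusted p = 0.0179), where the call was lost without SD replicate 1 or 2 (highest adjusted p = 0.0521).

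Genes of lipid-associated macrophages, which surround dying adipocytes and take up their lipid, rose in part. Of 20 tested, 13 rose and 0 fell at SZ-A 400 (median 1.54), and 16 rose in HFD (median 2.13). The list median was 2.05 in library set 1 and 0.51 in set 2. The summed list was 27779, 55440, 40843 and 43114 CPM in SZ-A 400 replicates 1, 2, 4 and 5, above the SD range of 21952 to 26869 CPM, and 24405 and 24395 CPM in replicates 7 and 8, within it. Trem2, their lipid-sensing receptor, ran 2.22 to 16.3 CPM (median 5.79) in SD and 29.0 to 630.2 CPM (median 233) at SZ-A 400 (log2 fold change 4.64, SE 0.86, adjusted p = 0.000604). Gpnmb, a glycoprotein of lipid-laden macrophages, ran 11.9 to 152 CPM (median 43.8) in SD and 174 to 5739.8 CPM (median 1888) at SZ-A 400 (log2 fold change 4.76, SE 0.97, adjusted p = 0.00155). The 2 groups did not overlap for either gene. Mmp12, the macrophage elastase, spanned 115 to 4838 CPM (median 772) at SZ-A 400 and 0.562 to 32.5 CPM (median 12.1) in SD (log2 fold change 6.17, SE 1.19, adjusted p = 0.000964). Atp6v0d2, a proton pump subunit of macrophages, rose by 4.62 (adjusted p = 0.00131). Trem2, Gpnmb and Atp6v0d2 were small parts of the summed list, so other members made up most of it. In SZ-A 400 replicates 7 and 8 these genes lay above their SD ranges. Trem2 was at 78.5 and 44.1 CPM there, Gpnmb at 575 and 380 CPM, and Atp6v0d2 at 63.9 and 55.2 CPM (highest SD library 20.7 CPM). Of 15 resident macrophage genes, 0 were called at SZ-A 400 and 6 rose in HFD, with medians of 0.23 and 0.47. The shares of all genes that rose were 8.98% and 24.1% in these comparisons.

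The size of the macrophage signal varied widely between libraries of 1 group. The 20 general markers summed to 1695, 13652, 8730, 9338, 2682 and 1892 CPM in SZ-A 400 replicates 1, 2, 4, 5, 7 and 8. The 6 SD libraries summed to 753 to 1375 CPM, so all SZ-A 400 libraries lay above them, with replicates 1, 7 and 8 the nearest. Among HFD libraries the sums ran from 1184 CPM in replicate 8 to 15454 CPM. The list median was 2.63 in library set 1 and 1.34 in set 2, and the number of its members that rose was 12 without SZ-A 400 replicate 2. In bulk tissue, more macrophages and more RNA per macrophage cannot be told apart.

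**Figure D2:**
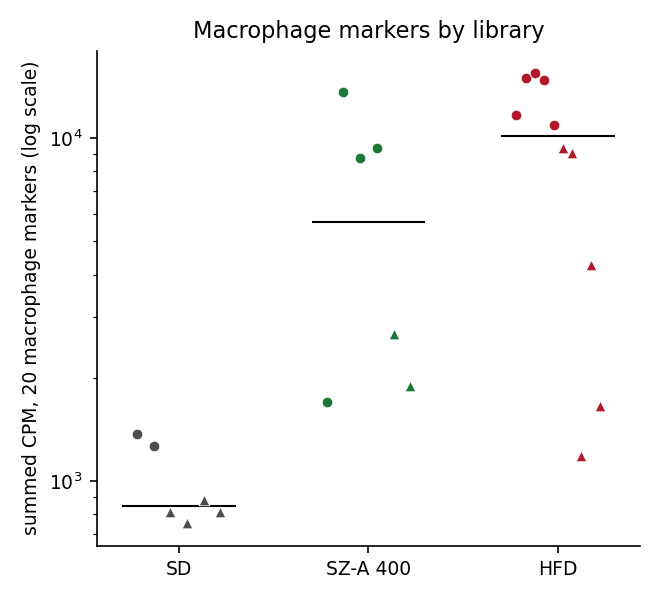
Summed CPM of 20 general macrophage markers per library (log scale) in SD, SZ-A 400 and HFD, with circles for library set 1, triangles for set 2 and a line at the group median. The 6 SZ-A 400 libraries run from 1695 to 13652 CPM, all above the SD range of 753 to 1375 CPM.

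Other immune genes gave fewer calls. Between SZ-A 400 and HFD, edgeR called 0 of the cytokine, chemokine and MHC class II genes below (medians -0.65, -0.80 and -0.69). The shares of all genes that rose and fell were 8.98% and 5.87% at SZ-A 400, and 24.1% and 19.7% in HFD. Of 20 cytokine and inflammasome genes, 6 rose and 1 fell at SZ-A 400, against 12 and 1 in HFD. Il1rn, the interleukin-1 receptor antagonist, ran 0.268 to 5.63 CPM (median 1.25) in SD and 4.90 to 148 CPM (median 30.2) at SZ-A 400 (log2 fold change 3.90, SE 0.98, adjusted p = 0.00697). Casp1, the inflammasome protease, rose by 1.66 (adjusted p = 0.0148). Without SD replicate 2 or SZ-A 400 replicate 2 the Casp1 call was lost (highest adjusted p = 0.0525). Il1b, the interleukin-1 beta gene, was low in all groups and was the member that fell, at 0.0594 to 0.764 CPM (median 0.471) against 0.287 to 24.9 CPM (median 1.30) in SD (log2 fold change -2.63, SE 0.77, adjusted p = 0.0188). That fall rested on SD replicate 6, without which adjusted p = 0.333. The 6 rises became 3 without SD replicate 1 or SZ-A 400 replicate 2 and 2 without SD replicate 2. Of 24 chemokine genes and receptors 5 rose at SZ-A 400 and 12 in HFD. The 5 became 2, 2 and 2 without SD replicates 1, 2 and 5, and 1, 3 and 2 without SZ-A 400 replicates 2, 4 and 5. Ccr2, the receptor for CCL2 on monocytes, ran 11.0 to 22.5 CPM (median 17.6) in SD and 20.3 to 59.8 CPM (median 42.4) at SZ-A 400 (log2 fold change 1.12, SE 0.37, adjusted p = 0.0381), a call lost without any 1 of 6 of the 12 libraries (highest adjusted p = 0.108). Tnf was at 0.446 to 3.28 CPM (median 1.14) against 0.110 to 1.08 CPM (median 0.484) and was not called (log2 fold change 1.63, SE 0.65, adjusted p = 0.0872). Of 11 MHC class II genes 3 rose at SZ-A 400 and 9 in HFD, and in library set 1 alone 8 rose. The 3 became 5 or more without SD replicate 6 or SZ-A 400 replicate 1, 7 or 8. H2-DMb1, which loads peptide onto class II, ran 9.66 to 22.6 CPM (median 14.4) in SD and 20.3 to 135 CPM (median 72.5) at SZ-A 400 (log2 fold change 1.84, SE 0.43, adjusted p = 0.00482). Of 18 T and NK cell markers 0 were called at SZ-A 400, and 4 rose in HFD. Of 14 B and plasma cell markers, 1 rose at SZ-A 400. These lymphocyte counts were near the shares of all genes that rose, 8.98% at SZ-A 400 and 24.1% in HFD. The B and plasma cell marker that rose was the plasma cell surface proteoglycan Sdc1 (log2 fold change 1.58, SE 0.43, adjusted p = 0.0121), which macrophages and epithelia express as well.

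Of 22 interferon response genes tested, 10 rose in HFD and 1 at SZ-A 400. That 1 was Oas1a, an antiviral RNA sensor, at 3.21 to 4.34 CPM (median 3.67) in SD, 5.35 to 19.7 CPM (median 13.0) at SZ-A 400 and 8.19 to 36.3 CPM (median 22.3) in HFD (log2 fold change 1.46, SE 0.35, adjusted p = 0.00488 against SD). Its relative Oas3 ran 0.921 to 3.48 CPM (median 2.49) at SZ-A 400 and 2.13 to 8.70 CPM (median 6.18) in HFD (log2 fold change -1.28, SE 0.37, adjusted p = 0.12 against HFD), so the direct test did not separate the 2 groups. The interferon response motif, GAAA repeated after any 2 bases, searched on both strands in RefSeq promoters from 250 bases before to 50 bases after the start (build GRCm38.p6), was present in 10 of the 15 list genes with an entry and in 3.99% of all 27025 genes. Of those 10, 6 rose in HFD and 1 at SZ-A 400. Of the 5 without the motif, those counts were 2 and 0. Of all genes, 24.1% rose in HFD and 8.98% at SZ-A 400.

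Lysosomal genes rose with the macrophage markers. Of 25 tested, 15 rose at SZ-A 400 (median 0.85) and 22 in HFD (median 1.28), and 0 fell in either. Gusb, the beta-glucuronidase, ran 45.6 to 70.2 CPM (median 57.0) in SD and 89.5 to 509 CPM (median 227) at SZ-A 400 (log2 fold change 1.75, SE 0.45, adjusted p = 0.00843), without overlap. Glb1 and Ctsz, a galactosidase and a cathepsin, rose by 0.77 and 1.24 (adjusted p = 0.00374 and 0.00591). The count was 8 and 6 without SD replicates 1 and 2, and 6, 9 and 9 without SZ-A 400 replicates 2, 4 and 5. The list median was 1.33 in library set 1 and 0.28 in set 2.

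Cell-cycle genes were called in HFD and not at SZ-A 400, and no difference between these 2 groups passed the test. Of 25 tested, 23 rose in HFD and 0 were called at SZ-A 400, where their median log2 fold change was still 0.90, against 1.81 in HFD. Cdk1, the mitotic kinase, ran 1.38 to 3.80 CPM (median 2.85) in SD, 2.92 to 13.6 CPM (median 7.35) at SZ-A 400 and 1.74 to 28.4 CPM (median 13.2) in HFD. Its fold change at SZ-A 400 missed the threshold (log2 fold change 1.05, SE 0.39, adjusted p = 0.0653), and so did its difference from HFD (log2 fold change -0.96, SE 0.34, adjusted p = 0.198). The direct comparison with HFD called 0 of the 25, with a median of -0.95. Within library set 1 the list median against SD was 1.98, and within set 2 it was -0.05.

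All 18 collagen genes tested rose in HFD (median 1.63, against 24.1% of all genes), and 4 rose at SZ-A 400 (median 0.81, against 8.98% of all genes). Between SZ-A 400 and HFD edgeR called 0 of the 18 (median -0.56). In library set 1 alone 9 rose, and 9, 7 and 10 rose without SD replicate 7, SZ-A 400 replicate 1 and SZ-A 400 replicate 7. Col16a1, a minor fibril-associated collagen, ran 7.93 to 23.9 CPM (median 10.8) in SD, 32.6 to 107 CPM (median 66.7) at SZ-A 400 and 30.7 to 96.5 CPM (median 64.8) in HFD. Its fold changes against SD were of like size (log2 fold change 2.34, SE 0.30, adjusted p = 5.07e-06 at SZ-A 400, and log2 fold change 2.38, SE 0.28, adjusted p = 3.81e-07 for HFD). Col6a1 and Col6a2, chains of the collagen VI that encases adipocytes, rose by 1.12 and 1.15 (adjusted p = 0.00469 and 0.00592). Col1a1, the main chain of fibrillar collagen I, ran 123 to 440.3 CPM (median 162) in SD and 161 to 1263 CPM (median 544) at SZ-A 400 and was not called (log2 fold change 1.31, SE 0.52, adjusted p = 0.0855), while it rose in HFD (log2 fold change 2.34, SE 0.50, adjusted p = 0.000317). Of 30 matrix remodelling genes 5 rose and 3 fell at SZ-A 400, against 15 and 5 in HFD, and 8 and 9 rose without SZ-A 400 replicates 1 and 7. The shares of all genes that rose and fell were 8.98% and 5.87% at SZ-A 400, and 24.1% and 19.7% in HFD. Loxl1, an enzyme that cross-links elastin, rose by 1.39 (adjusted p = 0.00285). Adamts4 and Adamts1, proteases that cut proteoglycans, fell by 1.97 and 1.41 (adjusted p = 7.71e-05 and 0.000549). Adamts4 ran 22.9 to 65.5 CPM (median 31.9) in SD and 3.38 to 16.4 CPM (median 6.55) at SZ-A 400, with no overlap.

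Leptin and part of the other adipokine genes remained above SD. Lep, the leptin gene (chromosome 6, 29060219 to 29073876), ran 321 to 792 CPM (median 478) in SD, 202 to 2537 CPM (median 2098) at SZ-A 400 and 710.4 to 2724 CPM (median 1709.7) in HFD. At SZ-A 400, 5 of 6 libraries lay above the SD range and replicate 7 lay below it, at 202 CPM (log2 fold change 1.55, SE 0.32, adjusted p = 0.00176). SZ-A 400 and HFD did not differ by the test (log2 fold change -0.068, SE 0.28, adjusted p = 0.917). Sfrp5, a Wnt-binding adipokine, ran 64.6 to 325 CPM (median 158) in SD and 123 to 1045 CPM (median 662) at SZ-A 400 (log2 fold change 1.66, SE 0.35, adjusted p = 0.00224). Rarres2, which encodes chemerin, ran 48.8 to 116 CPM (median 65.7) and 88.9 to 248 CPM (median 163) (log2 fold change 0.87, SE 0.16, adjusted p = 0.000626). In all 4 of 15 adipokine genes rose and 0 fell at SZ-A 400, against 5 and 2 in HFD. The shares of all genes that rose and fell were 8.98% and 5.87% at SZ-A 400, and 24.1% and 19.7% in HFD. The list median was below 0 at SZ-A 400, at -0.28, and was 0.07 in HFD. Mest, a marker of fat pad expansion, ran 189.6 to 432 CPM (median 225) in SD and 221 to 784 CPM (median 503) at SZ-A 400 without a call (log2 fold change 0.65, SE 0.33, adjusted p = 0.183), and it was not called in HFD either (log2 fold change 0.53, SE 0.30, adjusted p = 0.144). Fgf1, a growth factor of expanding fat, rose by 0.99 (adjusted p = 0.00561), and Vegfa, the vascular growth factor, fell by 1.43 (adjusted p = 0.0391). The Vegfa call was lost without any 1 of 8 of the 12 libraries (highest adjusted p = 0.166).

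Genes of lipid storage were called in part at SZ-A 400. Of 18 triglyceride synthesis and lipid droplet genes, 4 rose and 0 fell at SZ-A 400, whereas 5 rose and 8 fell in HFD. Of all genes, 8.98% rose and 5.87% fell at SZ-A 400, and 24.1% rose and 19.7% fell in HFD. Dgat2, which makes triglyceride in its last step, ran 288 to 440.3 CPM (median 355) in SD, 435 to 1441 CPM (median 1200.5) at SZ-A 400 and 634 to 1077 CPM (median 741) in HFD (log2 fold change 1.34, SE 0.23, adjusted p = 0.000339 at SZ-A 400). Agpat2, an earlier enzyme of the same route, rose by 0.80 (adjusted p = 0.00735), as did the droplet coat gene Plin3, by 0.79 (adjusted p = 0.00817). Of 18 genes of fatty acid synthesis, 2 rose and 1 fell, where 8.98% of all genes rose and 5.87% fell. Scd2, a desaturase, rose from 12.9 to 62.3 CPM (median 34.3) to 50.3 to 351 CPM (median 180.2) (log2 fold change 2.08, SE 0.46, adjusted p = 0.0029). Acaca, which makes malonyl-CoA, fell from 259 to 1122 CPM (median 406) to 115 to 288 CPM (median 172) (log2 fold change -1.19, SE 0.34, adjusted p = 0.0164), a call lost without SD replicate 2 or 6 (highest adjusted p = 0.08). Scd1, the main adipocyte desaturase, fell in HFD (log2 fold change -1.25, SE 0.39, adjusted p = 0.00917) and was at 13758 to 66069 CPM (median 28566) at SZ-A 400 against 31983 to 70426 CPM (median 46864) in SD (log2 fold change -0.44, SE 0.45, adjusted p = 0.555). Fasn, the fatty acid synthase, was not called (log2 fold change -0.44, SE 0.40, adjusted p = 0.499), and its fold change was 1.53 in library set 1 and -1.58 in set 2.

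Mature adipocyte markers, lipolysis genes and endothelial markers gave 1, 2 and 1 falls at SZ-A 400 among 20, 18 and 20 genes, where 5.87% of all genes fell. Between SZ-A 400 and HFD edgeR called 0 of each list (medians 0.43, 0.40 and 0.29). Of 20 mature adipocyte markers, 1 fell at SZ-A 400 and 12 fell in HFD, with medians of -0.33 and -0.70. Adipoq, the adiponectin gene, ran 2397 to 3995 CPM (median 2738) in SD and 1503 to 4800.2 CPM (median 2400.1) at SZ-A 400 (log2 fold change -0.30, SE 0.38, adjusted p = 0.639). Pparg, the master regulator of the adipocyte, ran 199 to 397 CPM (median 234) in SD and 103 to 193 CPM (median 157) at SZ-A 400. Those 2 ranges did not overlap, yet its fold change missed the threshold (log2 fold change -0.76, SE 0.28, adjusted p = 0.0648), and it was -0.75 in HFD (adjusted p = 0.0133, and 0.0931 without SD replicate 2). Of 18 lipolysis genes, 2 fell at SZ-A 400 and 10 in HFD. Acvr1c, the receptor ALK7, fell to 43.4 to 246 CPM (median 116) against 249.9 to 428 CPM (median 341) in SD (log2 fold change -1.20, SE 0.37, adjusted p = 0.0267). The Acvr1c call was lost without SD replicate 1 or 2 or SZ-A 400 replicate 2, 4 or 5 (highest adjusted p = 0.0993). Adrb3, the beta-3 adrenergic receptor of adipocytes, spanned 56.1 to 1060.5 CPM (median 141) at SZ-A 400 and was not called (log2 fold change -1.28, SE 0.72, adjusted p = 0.234). Of 20 endothelial markers 13 fell in HFD and 1, the tight junction gene Cldn5 (log2 fold change -0.95, SE 0.32, adjusted p = 0.0386), at SZ-A 400. That call was lost without any 1 of 9 of the 12 libraries (highest adjusted p = 0.121).

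Insulin signalling genes had 7 falls and 0 rises among 20 at SZ-A 400, against 14 falls and 2 rises in HFD (medians -0.30 and -0.67). Insr, the insulin receptor, ran 248 to 338 CPM (median 309) in SD, 78.8 to 261 CPM (median 139.8) at SZ-A 400 and 67.2 to 183 CPM (median 109) in HFD (log2 fold change -0.87, SE 0.23, adjusted p = 0.0097 at SZ-A 400). At this dose 5 of 6 libraries lay below the SD range. Irs1 and Irs2, the adaptors that carry the signal from the receptor, fell by 1.07 and 1.46 (adjusted p = 0.0227 and 0.00603). Grb10, an inhibitor of the receptor, ran 136 to 187 CPM (median 163) in SD and 30.7 to 106 CPM (median 56.7) at SZ-A 400, with no overlap (log2 fold change -1.29, SE 0.31, adjusted p = 0.00537). The 7 falls became 4 and 2 without SD replicates 1 and 2, and 3 and 4 without SZ-A 400 replicates 4 and 5. The Insr call was lost without SD replicate 2 (adjusted p = 0.0625) and the Irs1 call without any 1 of 5 libraries (highest adjusted p = 0.0833). The median was -0.58 in library set 1 and -0.09 in set 2.

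Branched-chain amino acid breakdown, a pathway often low in obese fat, had 19 falls of 24 in HFD and 2 at SZ-A 400 (medians -0.71 and -0.43). Of all genes, 19.7% fell in HFD and 5.87% at SZ-A 400, so the SZ-A 400 count was near the share of all genes. The falls were Acadsb, a dehydrogenase of the pathway (log2 fold change -0.73, SE 0.25, adjusted p = 0.0404), and Ppm1k, the phosphatase that switches the pathway on (log2 fold change -0.67, SE 0.22, adjusted p = 0.0308). Bcat1, the cytosolic aminotransferase, rose at SZ-A 400 from 2.33 to 8.35 CPM (median 3.96) to 7.00 to 26.5 CPM (median 22.1) (log2 fold change 1.82, SE 0.31, adjusted p = 0.000347). The Acadsb and Ppm1k calls were lost without any 1 of 9 and of 8 of the 12 libraries (highest adjusted p = 0.152 and 0.108). None of the 24 was called between SZ-A 400 and HFD by edgeR, where the median was 0.32.

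Cholesterol synthesis genes remained raised in part, with 10 rises of 22 and 0 falls at SZ-A 400, against 16 and 1 in HFD (medians 0.49 and 0.63). The SZ-A 400 median was 0.73 in library set 1 and 0.14 in set 2. Dhcr7, the last enzyme of the route, ran 4.89 to 7.09 CPM (median 5.74) in SD and 10.4 to 33.1 CPM (median 22.1) at SZ-A 400 (log2 fold change 1.58, SE 0.36, adjusted p = 0.00372), without overlap. Insig1 and Mvd, a sterol sensor partner and an enzyme of the mevalonate route, rose by 0.87 and 0.85 (adjusted p = 0.0105 and 0.00775). The count was 6 and 4 without SD replicates 1 and 2 and 5 and 5 without SZ-A 400 replicates 2 and 5.

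**Figure D3:**
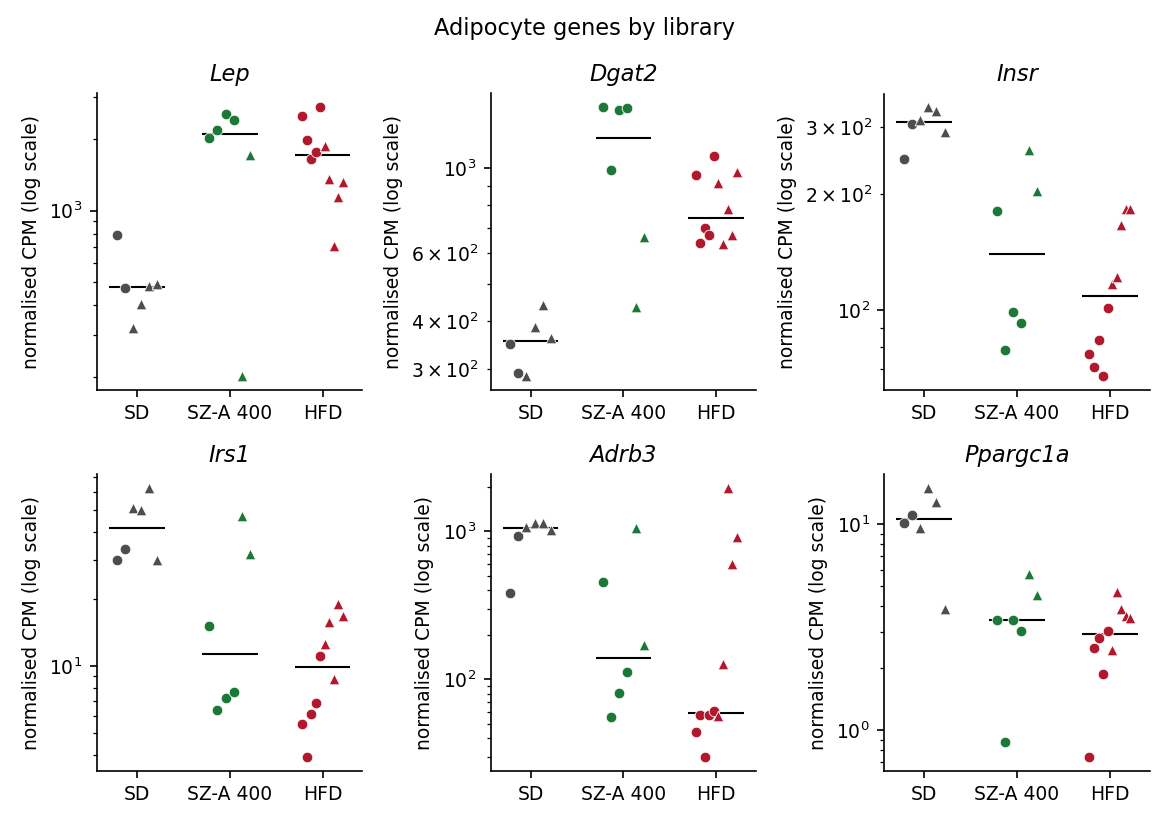
Normalised CPM per library (log scale) of Lep, Dgat2, Insr, Irs1, Adrb3 and Ppargc1a in SD, SZ-A 400 and HFD, with circles for library set 1, triangles for set 2 and a line at the group median. Lep at SZ-A 400 lies above the SD range in 5 of 6 libraries and at 202 CPM in replicate 7.

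Thermogenic and browning genes, the subject of the series title, gave 3 rises and 3 falls of 21 at SZ-A 400 against SD and 0 calls against HFD. The diet alone gave 3 rises and 5 falls. Of all genes, 8.98% rose and 5.87% fell at SZ-A 400, and 24.1% rose and 19.7% fell in HFD. Ucp1, the uncoupling protein of thermogenic fat, was near the detection limit in all groups, at 0 to 0.549 CPM (median 0.322) in SD and 0 to 0.959 CPM (median 0.208) at SZ-A 400 (log2 fold change -0.078, SE 1.00, adjusted p = 0.972). Cidea, another brown fat marker, was not called (log2 fold change -0.57, SE 0.37, adjusted p = 0.313) and fell in HFD (log2 fold change -1.12, SE 0.32, adjusted p = 0.00488). Ppargc1a, the coactivator that drives mitochondrial genes, ran 3.88 to 15.0 CPM (median 10.6) in SD and 0.872 to 5.75 CPM (median 3.42) at SZ-A 400 (log2 fold change -1.48, SE 0.34, adjusted p = 0.00391). Ebf2, a factor of brown fat identity, fell by 0.86 (adjusted p = 0.00977, and 0.0664 without SD replicate 2). Prdm16, a regulator of brown fat fate, ran 7.21 to 10.3 CPM (median 9.59) in SD, 8.71 to 19.3 CPM (median 12.9) at SZ-A 400 and 5.44 to 12.7 CPM (median 9.74) in HFD. It rose against SD at SZ-A 400 (log2 fold change 0.68, SE 0.18, adjusted p = 0.00888) and not in HFD (log2 fold change 0.053, SE 0.16, adjusted p = 0.806), and its difference from HFD just missed the threshold (log2 fold change 0.62, SE 0.15, adjusted p = 0.0586). Esrra, a partner of PGC-1 alpha, rose by 0.44 (adjusted p = 0.00663). Ppargc1a and Ebf2 were also called lower in HFD than in SD, and Esrra was also called higher there.

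Clock genes gave the 2 smallest p-values of SZ-A 400 against HFD, Tef and Dbp, and promoters of the group are shown first. The E-box CACGTG, bound by BMAL1 with CLOCK or NPAS2, and the D-box TTATGNAA, bound by DBP, TEF and HLF, were searched on both strands in the same promoter windows. An E-box was present in 5 of the 13 clock repressors and output factors with an entry, against 8.09% of all genes, and in 0 of 5 clock activators. Of the 5 with an E-box, 1 (Tef) was higher at SZ-A 400 than in HFD, and of the 8 without it 5 were. Against SD, 2 rose and 2 fell of the 5, and 1 rose and 2 fell of the 8. A D-box was present in 2 of the 13, against 3.99% of all genes. Shown are the 250 bases before the start of Tef and Per1 (1 of the 2 entries of each), both clock genes with an E-box here, which were called against SD in opposite directions, 5′ to 3′ from RefSeq (GRCm38.p6), with E-box and D-box letters in capitals. Tef is from chr15:81811164-81811413 and Per1 from chr11:69098699-69098948, both on the plus strand.
Tef: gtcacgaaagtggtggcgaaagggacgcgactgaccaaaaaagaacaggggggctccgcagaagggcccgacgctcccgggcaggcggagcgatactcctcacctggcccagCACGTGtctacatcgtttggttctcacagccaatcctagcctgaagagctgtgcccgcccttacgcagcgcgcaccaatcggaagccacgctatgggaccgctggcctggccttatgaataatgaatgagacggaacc
Per1: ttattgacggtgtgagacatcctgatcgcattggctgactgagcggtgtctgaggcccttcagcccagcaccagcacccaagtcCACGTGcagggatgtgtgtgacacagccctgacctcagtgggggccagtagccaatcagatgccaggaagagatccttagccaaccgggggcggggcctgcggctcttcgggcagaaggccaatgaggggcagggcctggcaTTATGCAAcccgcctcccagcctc
In Tef the E-box began 138 bases before the start. In Per1 the E-box began 166 and the D-box 24 bases before it. The Dbp window held neither motif.

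Dbp, a transcription factor driven by the clock (chromosome 7, 45354512 to 45359627), had the clearest difference. It ran 5.29 to 11.4 CPM (median 5.42) in SD, 30.7 to 42.1 CPM (median 40.6) at SZ-A 400 and 5.22 to 14.7 CPM (median 11.7) in HFD. The lowest SZ-A 400 library lay above every SD and HFD library (log2 fold change 2.31, SE 0.28, adjusted p = 4.31e-06 against SD, and log2 fold change 1.78, SE 0.23, adjusted p = 4.23e-05 against HFD). HFD itself was not called against SD (log2 fold change 0.53, SE 0.25, adjusted p = 0.0792). The fold change against SD was 2.80 in library set 1 and 2.35 in set 2. Of the 15 clock repressors and output factors, 6 were higher at SZ-A 400 than in HFD and 0 lower (median 0.71), where 10 had fallen in HFD against SD (median -0.55). Against SD, 3 rose and 4 fell at SZ-A 400 (median 0.23), and without single libraries 1 to 4 fell.

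The other 5 genes higher than in HFD were Tef, Hlf, Nr1d1, Nr1d2 and Per3, the last named outside the rule for named genes after its values were seen. Tef, which binds the same site as DBP, ran 102 to 163 CPM (median 130.2) in SD, 117 to 217 CPM (median 154) at SZ-A 400 and 66.1 to 124 CPM (median 81.1) in HFD. It fell in HFD (log2 fold change -0.51, SE 0.12, adjusted p = 0.00076) but rose at SZ-A 400 (log2 fold change 0.44, SE 0.13, adjusted p = 0.0233), and the 2 high-fat groups differed (log2 fold change 0.94, SE 0.12, adjusted p = 1.92e-05). Its rise against SD was lost without SZ-A 400 replicate 1 (adjusted p = 0.073). Hlf, the third factor of that family, ran 8.51 to 18.9 CPM (median 11.1) at SZ-A 400 and 1.98 to 8.04 CPM (median 3.90) in HFD, without overlap (log2 fold change 1.51, SE 0.29, adjusted p = 0.00961), and did not differ from SD by the test (log2 fold change 0.26, SE 0.33, adjusted p = 0.64). Nr1d1 and Nr1d2 encode the REV-ERB repressors of Arntl. Nr1d1 ran 137 to 201 CPM (median 153) in SD, 93.2 to 206 CPM (median 110.2) at SZ-A 400 and 47.7 to 109.6 CPM (median 69.5) in HFD (log2 fold change 0.87, SE 0.18, adjusted p = 0.0231 against HFD). Nr1d2 ran 65.0 to 119 CPM (median 77.2) at SZ-A 400 and 38.0 to 60.0 CPM (median 50.9) in HFD, again without overlap (log2 fold change 0.77, SE 0.12, adjusted p = 0.000821). Per3, a period gene, fell in HFD by 1.13 and was 1.07 above HFD at SZ-A 400 (adjusted p = 0.0063). Without SZ-A 400 replicate 8 the calls of Hlf, Nr1d1 and Per3 against HFD were lost (adjusted p = 0.125, 0.082 and 0.0701), and that of Nr1d1 also without replicate 1 or 7 (adjusted p = 0.0655 and 0.162), while those of Dbp, Tef and Nr1d2 held without each of the 12 SD and SZ-A 400 libraries, and HFD libraries were not left out in turn.

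All 5 clock activators tested fell at SZ-A 400 against SD (median -1.23), and 3 fell in HFD. Against HFD 1 was lower and 0 higher, with a median of 0.04. Arntl, the BMAL1 gene (chromosome 7, 112806672 to 112913333), ran 17.2 to 26.5 CPM (median 22.6) in SD, 6.86 to 12.4 CPM (median 10.5) at SZ-A 400 and 11.1 to 27.9 CPM (median 24.5) in HFD. All 6 SZ-A 400 libraries lay below the SD range, and 3 of the 6 below the HFD range (log2 fold change -1.23, SE 0.20, adjusted p = 0.000154 against SD, and log2 fold change -1.17, SE 0.18, adjusted p = 0.000562 against HFD). The diet alone gave no call (log2 fold change -0.058, SE 0.17, adjusted p = 0.805). Npas2, a partner of BMAL1, ran 7.24 to 11.0 CPM (median 9.21) in SD and 1.22 to 5.64 CPM (median 2.85) at SZ-A 400, without overlap (log2 fold change -1.62, SE 0.41, adjusted p = 0.00759), and its difference from HFD missed the threshold (log2 fold change -1.53, SE 0.37, adjusted p = 0.0568). Clock, the other partner, and Rora, an activator of Arntl, fell against SD both at SZ-A 400 and in HFD. For Clock the fold changes were -0.59 and -0.63 (adjusted p = 0.000703 and 1.01e-05), and for Rora -0.54 and -0.77 (adjusted p = 0.00926 and 1.74e-05). Without SD replicate 2, 3 of the 5 fell and the Rora call was lost (adjusted p = 0.0747), whereas the Arntl calls held without each of the 12 SD and SZ-A 400 libraries. The median of the 5 was -1.14 in library set 1 and -1.18 in set 2. Among the repressors, Per1, an early light- and hormone-responsive period gene, ran 149 to 395 CPM (median 272) in SD and 53.8 to 157 CPM (median 96.3) at SZ-A 400 (log2 fold change -1.11, SE 0.34, adjusted p = 0.0259) and did not differ from HFD by the test (log2 fold change -0.11, SE 0.31, adjusted p = 0.868). The Per1 fall was lost without any 1 of 5 of the 12 libraries (highest adjusted p = 0.124). Nfil3, which opposes DBP at the D-box, fell by 1.62 (adjusted p = 0.00279), and Bhlhe41, a repressor of the activators, rose by 1.46 (adjusted p = 0.00766).

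**Figure D4:**
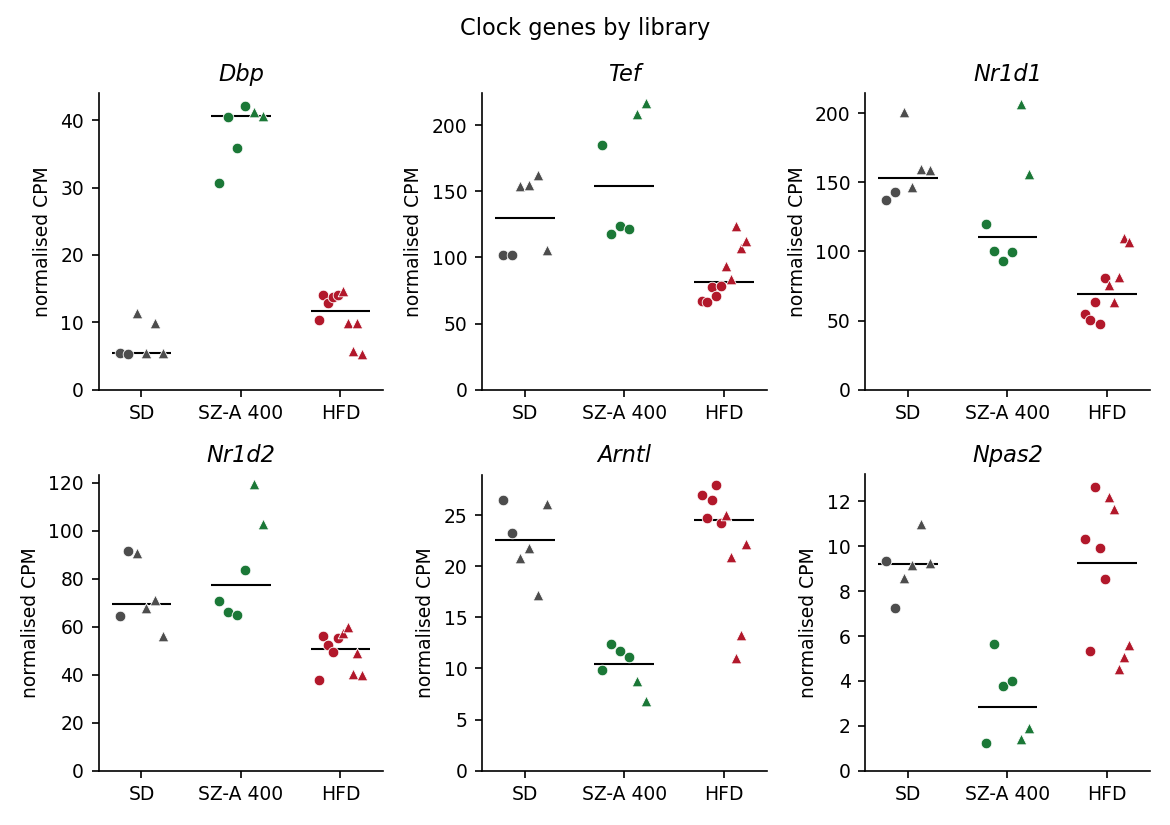
Normalised CPM per library of Dbp, Tef, Nr1d1, Nr1d2, Arntl and Npas2 in SD, SZ-A 400 and HFD, with circles for library set 1, triangles for set 2 and a line at the group median. Dbp at SZ-A 400 lies above every SD and HFD library, and Arntl at SZ-A 400 lies below every SD library.

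Part of the endoplasmic reticulum chaperones that rose in HFD were lower at SZ-A 400. The endoplasmic reticulum stress element, CCAAT followed after any 9 bases by CCACG and bound by ATF6 with NF-Y, was present in 10 of the 21 chaperone genes with a promoter entry and in 37 of all 27025 genes (0.137%). Shown are the 250 bases before the start of 3 of the 10, with the element in capitals: Hspa5 and Creld2, which were lower at SZ-A 400 than in HFD, and Calr, which still exceeded SD. The sequences are 5′ to 3′ from RefSeq (GRCm38.p6), Hspa5 from chr2:34771840-34772089 and Creld2 from chr15:88819396-88819645 on the plus strand, and Calr from chr8:84846932-84847181 on the minus strand. In Creld2 and Calr the element lies on the opposite strand, so its letters read as the reverse complement.
Hspa5: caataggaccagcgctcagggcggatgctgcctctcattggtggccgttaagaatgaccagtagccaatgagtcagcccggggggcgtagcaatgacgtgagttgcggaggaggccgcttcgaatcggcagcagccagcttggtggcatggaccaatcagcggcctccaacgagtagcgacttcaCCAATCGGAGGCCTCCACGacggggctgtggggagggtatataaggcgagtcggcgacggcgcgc
Creld2: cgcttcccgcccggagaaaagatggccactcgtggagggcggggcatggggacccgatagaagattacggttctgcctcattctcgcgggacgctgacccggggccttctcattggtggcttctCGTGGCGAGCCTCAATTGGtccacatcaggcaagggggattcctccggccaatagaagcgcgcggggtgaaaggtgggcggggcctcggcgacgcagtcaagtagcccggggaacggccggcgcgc
Calr: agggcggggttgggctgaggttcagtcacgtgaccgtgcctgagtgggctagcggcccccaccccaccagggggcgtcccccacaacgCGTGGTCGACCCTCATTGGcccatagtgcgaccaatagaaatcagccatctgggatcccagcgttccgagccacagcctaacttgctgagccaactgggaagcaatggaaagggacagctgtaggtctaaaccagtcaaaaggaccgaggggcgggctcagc
The element began 65 bases before the start in Hspa5, 126 in Creld2 and 162 in Calr. Of the 10 genes with it, 7 rose in HFD, 2 rose at SZ-A 400 and 2 were lower than in HFD. Of the 11 without it, those counts were 7, 4 and 1.

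Of 24 chaperone genes tested, 16 rose and 2 fell in HFD (median 0.57), while 6 rose and 0 fell at SZ-A 400 (median 0.26). Against HFD, 5 were lower at SZ-A 400 and 0 higher (median -0.27). They were Hspa5, Creld2, Manf, Hyou1 and Pdia4, of which Hyou1 and Pdia4 are named outside the rule after their values were seen. Hspa5, the main chaperone BiP (chromosome 2, 34661982 to 34667559), ran 220.2 to 363 CPM (median 269) in SD, 261 to 485 CPM (median 381) at SZ-A 400 and 401 to 907 CPM (median 624) in HFD. SZ-A 400 overlapped both groups, with 3 of 6 libraries above the SD range and 3 of 6 below the HFD range. It was lower than in HFD (log2 fold change -0.76, SE 0.14, adjusted p = 0.00521) and was not called against SD (log2 fold change 0.31, SE 0.15, adjusted p = 0.162). Creld2, a secreted chaperone of the stress response, ran 16.0 to 20.3 CPM (median 18.7), 18.3 to 29.1 CPM (median 24.0) and 28.1 to 55.4 CPM (median 40.9) in SD, SZ-A 400 and HFD (log2 fold change -0.85, SE 0.16, adjusted p = 0.0063 against HFD, and log2 fold change 0.29, SE 0.17, adjusted p = 0.259 against SD). Manf, a cofactor of BiP, ran 19.9 to 37.0 CPM (median 23.0), 23.3 to 58.8 CPM (median 38.9) and 42.0 to 92.8 CPM (median 60.2) in the same order (log2 fold change -0.85, SE 0.14, adjusted p = 0.00212 against HFD). Hyou1 and Pdia4 fell against HFD by 0.57 and 0.32 (adjusted p = 0.0312 and 0.0253). The Hspa5 and Manf calls held without each of the 12 SD and SZ-A 400 libraries, and HFD libraries were not left out in turn. The Creld2 call was lost without SZ-A 400 replicate 8 (adjusted p = 0.0554), and those of Hyou1 and Pdia4 without replicate 1, 4, 7 or 8 (highest adjusted p = 0.135).

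Other chaperones stayed above SD. Sdf2l1, a BiP cofactor, ran 4.21 to 8.68 CPM (median 4.99) in SD and 10.1 to 56.9 CPM (median 28.1) at SZ-A 400, without overlap (log2 fold change 1.94, SE 0.38, adjusted p = 0.00119). Calr, the calreticulin gene, ran 204 to 298 CPM (median 229) and 298 to 785 CPM (median 460), with the ranges only just apart (log2 fold change 0.80, SE 0.19, adjusted p = 0.00566). P4hb and Pdia6, disulfide isomerases, rose by 0.48 and 0.34 (adjusted p = 0.00393 and 0.00905). Of 20 genes of the ATF4 pathway, another stress arm, 3 rose and 5 fell at SZ-A 400, against 7 and 6 in HFD. The shares of all genes that rose and fell were 8.98% and 5.87% at SZ-A 400, and 24.1% and 19.7% in HFD. Atf4 itself ran 131 to 193 CPM (median 150.4) in SD and 89.9 to 134 CPM (median 109.5) at SZ-A 400 (log2 fold change -0.56, SE 0.13, adjusted p = 0.00442), and Sesn2, a stress-induced inhibitor of mTORC1 signalling, fell from 135 to 183 CPM (median 149) to 39.7 to 66.3 CPM (median 51.3) (log2 fold change -1.46, SE 0.35, adjusted p = 0.00537).

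**Figure D5:**
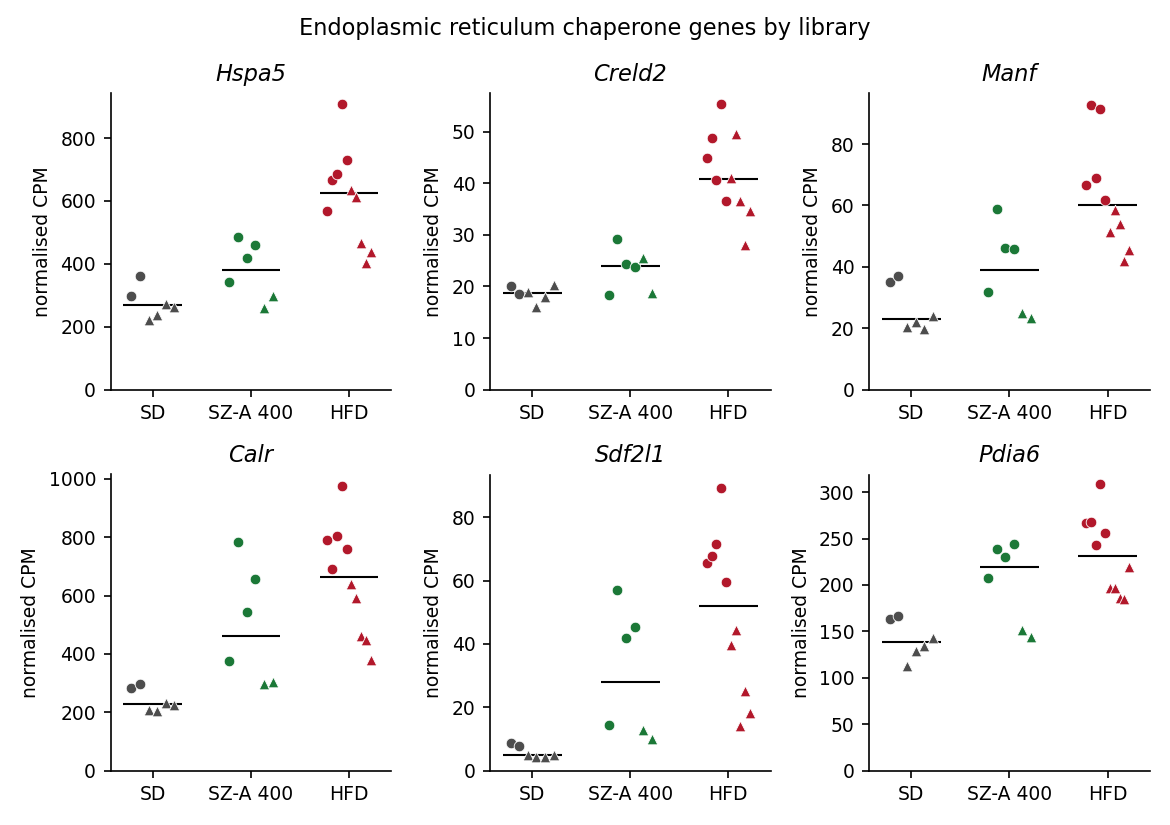
Normalised CPM per library of Hspa5, Creld2, Manf, Calr, Sdf2l1 and Pdia6 in SD, SZ-A 400 and HFD, with circles for library set 1, triangles for set 2 and a line at the group median. The SZ-A 400 medians lie between those of SD and HFD, for Hspa5 at 381 CPM between 269 and 624 CPM.

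Immediate early and glucocorticoid response genes gave falls and no rises at SZ-A 400. Of 20 immediate early genes, which respond within minutes to stimuli, 7 fell and 0 rose against SD (median -0.82), against 7 and 2 in HFD. Fosl2, a partner of JUN, ran 131 to 242 CPM (median 207) in SD and 53.6 to 108 CPM (median 76.8) at SZ-A 400 (log2 fold change -1.16, SE 0.19, adjusted p = 0.000149). Zfp36, which speeds the decay of cytokine mRNAs, ran 215 to 651 CPM (median 411) and 85.9 to 194 CPM (median 137) (log2 fold change -1.32, SE 0.26, adjusted p = 0.000979), and Klf4, a zinc finger factor, fell by 1.14 (adjusted p = 0.00176). All SZ-A 400 libraries lay below the SD range for these 3 genes. Of 15 glucocorticoid response genes, 7 fell and 0 rose (median -0.70), against 6 and 1 in HFD. Nr3c1, the glucocorticoid receptor, ran 210.4 to 247 CPM (median 222) in SD and 110 to 182 CPM (median 152) at SZ-A 400 (log2 fold change -0.55, SE 0.12, adjusted p = 0.00349). Its target Sgk1, a kinase, ran 282 to 459.8 CPM (median 345) and 99.0 to 265 CPM (median 147) (log2 fold change -1.11, SE 0.26, adjusted p = 0.00496), and Errfi1, an inhibitor of EGF receptor signalling, fell by 1.82 (adjusted p = 0.00224). Fosl2, Zfp36, Klf4, Nr3c1, Sgk1 and Errfi1 were also called lower in HFD than in SD. Between SZ-A 400 and HFD edgeR called 0 of either list (medians -0.35 and -0.16). The shares of all genes that fell were 5.87% at SZ-A 400 and 19.7% in HFD. Without SD replicate 2, 3 genes of each list fell at SZ-A 400 against SD. Of the immediate early genes, 4 fell without SD replicate 5 or 6 or SZ-A 400 replicate 1, 2, 4 or 8.

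The largest fitted rises at SZ-A 400 were mostly genes that were nearly absent in SD. Gpr50, an orphan receptor related to melatonin receptors (chromosome X, 70707273 to 70712863), ran 0 to 0.115 CPM (median 0.0269) in SD, 2.59 to 67.3 CPM (median 25.6) at SZ-A 400 and 1.20 to 76.4 CPM (median 32.7) in HFD (log2 fold change 8.58, SE 1.09, adjusted p = 5.22e-06). Fold changes against groups this close to 0 depend on the prior count and give no exact ratio. Serpinb9b, an inhibitor of granzyme-like proteases, and Prss46, a serine protease gene, followed with 0.951 to 126 CPM (median 8.21) against 0 to 0.345 CPM (median 0.111) and 0.119 to 6.18 CPM (median 1.53) against 0 to 0.0575 CPM (median 0). Tph2, the neuronal form of tryptophan hydroxylase, ran 0.110 to 0.696 CPM (median 0.482) in SD and 0.383 to 119 CPM (median 32.5) at SZ-A 400 (log2 fold change 4.76, SE 1.12, adjusted p = 0.00471). Myh15, Fat3, Trdn, Stra6l, Gdf3 and Rnf128 rose by between 4.74 and 5.82, with Gdf3, a growth factor, at 1.19 to 26.9 CPM (median 7.01) against 0 to 0.402 CPM (median 0.180). Mmp12 and Gpnmb complete the 12. For all 12 the HFD group was also called higher than SD, and SZ-A 400 was not called against HFD.

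The largest falls were led by Irf4, a factor of adipocyte fasting responses and of lymphocytes (chromosome 13, 30933209 to 30950959). It ran 62.9 to 584 CPM (median 153) in SD, 6.61 to 25.6 CPM (median 8.65) at SZ-A 400 and 7.42 to 134 CPM (median 15.8) in HFD (log2 fold change -4.32, SE 0.89, adjusted p = 0.00173), with no overlap between SZ-A 400 and SD. Cyp2f2, a cytochrome P450, ran 3.26 to 16.8 CPM (median 9.64) in SD and 0.184 to 1.16 CPM (median 0.493) at SZ-A 400 (log2 fold change -3.91, SE 0.78, adjusted p = 0.00133). Drd1, a dopamine receptor, ran 3.83 to 10.5 CPM (median 7.79) and 0.395 to 2.64 CPM (median 1.45) (log2 fold change -2.22, SE 0.53, adjusted p = 0.00495). Acta1, the skeletal muscle actin, fell by 2.14 (adjusted p = 0.0167). The normalised sum of the 8 skeletal muscle markers tested was 76.2 to 287 CPM in SD and 20.7 to 109 CPM at SZ-A 400. Acta1 alone ran 73.4 to 283 CPM and 13.7 to 104 CPM, so that sum was mostly Acta1 itself. It therefore gives no separate reading of muscle RNA, whose part in the Acta1 fall was not tested. Nr4a3, an orphan nuclear receptor, fell by 2.09 (adjusted p = 0.018), and Glt1d1, Rassf6, Prss51, Tlcd4 and Ptp4a1 fell by 2.00 to 3.44. The call of Nr4a3 was lost without SD replicate 2 (adjusted p = 0.11). Those of Glt1d1, Prss51 and Tlcd4 were lost without any 1 of 6, 10 and 5 of the 12 libraries (highest adjusted p = 0.0751, 0.106 and 0.0948). Il1b and Adamts4 complete the 12, of which 11 were also called lower in HFD. Acta1 was the exception (log2 fold change -0.96, SE 0.50, adjusted p = 0.115).

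Among diet genes, those with the smallest p against HFD were Tef, Alox12, Glipr2, Nr1d2, Manf, Hspa5, Creld2 and 1 unnamed locus. Alox12, a lipoxygenase, ran 2.24 to 5.13 CPM (median 3.86) in SD, 2.41 to 7.55 CPM (median 4.09) at SZ-A 400 and 0.453 to 2.18 CPM (median 1.45) in HFD. It fell in HFD (log2 fold change -1.47, SE 0.26, adjusted p = 5.7e-05), and all 6 SZ-A 400 libraries lay above the HFD range (log2 fold change 1.76, SE 0.27, adjusted p = 0.000562) and within or above that of SD. Glipr2, a Golgi-associated protein, ran 8.91 to 13.6 CPM (median 10.1), 7.33 to 15.2 CPM (median 9.18) and 13.9 to 21.9 CPM (median 17.9) in SD, SZ-A 400 and HFD. It rose in HFD (log2 fold change 0.71, SE 0.13, adjusted p = 9.41e-05), and 5 of 6 SZ-A 400 libraries lay below the HFD range (log2 fold change -0.85, SE 0.13, adjusted p = 0.000821). Kcnj8, a potassium channel of pericytes, was the 1 of 12 smooth muscle and pericyte markers called against HFD, at 20.3 to 52.7 CPM (median 34.6) against 10.4 to 20.8 CPM (median 15.6) (log2 fold change 1.19, SE 0.22, adjusted p = 0.0063), a call lost without SZ-A 400 replicate 8 (adjusted p = 0.0701).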

How the data were processed

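The members and gene lists were chosen with earlier results of these data known. TRIzol RNA was poly(A)-selected and sequenced in stranded dUTP libraries as 150 bp pairs, per the labels. The count of reads per gene was used as the authors deposited it, per the file headers, and their FPKM values were not used. The labels name mm10. Aligner and counter: not given in the sources used here. Of 19503 tested genes matched by ID and chromosome to a GRCm38 annotation, 2.1% had the same start or end, so gene positions are those of the files, without a build.

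The file held 56748 genes and 43 libraries, of which 39 were fitted (SZ-A 600 replicate 6 was also left out for RNA of other tissues). After filterByExpr, 20054 genes were tested with edgeR 4.0.16 in R 4.3.3, with TMM scaling, robust quasi-likelihood dispersion, all 5 groups and the library set as a term. The 2 sets were separated at the widest gap between libraries in the log of the small noncoding RNA percentage. For 39 lists of 668 symbols (665 in the file), calls and medians were counted, without a set test.

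Named genes were the 12 largest rises and 12 largest falls called (at least 2 CPM, and 5 or more of the 6 libraries in both groups beyond the opposite group's median), up to 4 called members per list, up to 2 per list with the smallest p against HFD, and the 8 diet genes with the smallest p against HFD in the direction opposite to the diet. Lep, Adipoq, Pparg, Mest, Sfrp5, Fasn, Scd1, Ppargc1a, Ucp1, Cidea, Prdm16, Adrb3, Adgre1, Itgax, Trem2, Ccl2, Tnf, Col1a1, Hspa5, Creld2, Dbp, Tef, Hlf, Per1, Nr1d1, Nr1d2, Arntl, Npas2, Insr and Irs1 were named in every case. Some genes that the rule selects are not reported here. Libraries of a group differed by more than sampling noise in each of 94 pairs (chi-square per degree of freedom at least 31.1). The fit was tested on simulated counts. Alternatives changed the scaling, filter, tool (limma 3.58.1, DESeq2 1.42.0), set term, libraries, threshold and replicate block. Plots used matplotlib 3.10.9 under Python 3.11.15.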

Additional observations from a re-analysis of the deposited data

Results flagged for a closer look

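Among 232 pairs of a named gene and a group (SD or SZ-A 400, 6 libraries each), 9 held a library far from the other 5 on the log2 scale, where chance alone marks about 5% of groups. These 9 were no more than chance alone would mark. At SZ-A 400, replicate 7 had 202 CPM of Lep, against 1710 to 2540 CPM in the other 5 libraries, and 30.8 CPM of Fgf1, against 77.9 to 112 CPM. Replicate 2 had 0.872 CPM of Ppargc1a, against 3.03 to 5.75 CPM, 149 CPM of Cldn5, against 263 to 319 CPM, and 46.6 CPM of Bhlhe41, against 13.2 to 20.7 CPM. That library also had the highest macrophage sum of the group, 13652 CPM, and its part in these values was not tested. In SD, replicate 7 had 318 CPM of Col6a1, against 175 to 209 CPM, and 3.88 CPM of Ppargc1a, against 9.58 to 15 CPM. Replicate 6 had 1120 CPM of Acaca, against 259 to 440 CPM. Replicate 1 had 386 CPM of Adrb3, against 932 to 1140 CPM, and it also had the highest sums of ciliated and duct epithelium markers among the SD libraries kept (49.4 and 89.9 CPM), whose part in that value was not tested.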

How the results depend on the processing

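Counts are given for SZ-A 400 against SD (higher and lower), HFD against SD (higher and lower), SZ-A 400 against HFD (all), and diet rises and falls shared by SZ-A 400. These were 1800 and 1177, 4835 and 3953, 61, and 1719 and 1057. Without the set term the calls against HFD were 11. With all 43 libraries the falls against SD were 455, the calls against HFD 1274, and the shared rises and falls 959 and 369, and 73.8% of calls against SD were rises, against 60.5%. In set 1 alone 9 genes were called against HFD. In set 2 alone edgeR called 0 against SD in each direction (1338 at an unadjusted p under 0.05, with DESeq2 calling 60 higher and 36 lower and limma voom 24 and 9), 1323 and 772 for HFD, 0 against HFD (2144 at an unadjusted p under 0.05, with DESeq2 calling 129 higher and 78 lower and limma voom 2 and 0), and 0 shared rises and falls. DESeq2 called 246 against HFD. Limma voom with quality weights called 3776 and 3354 against SD, 3005 against HFD, and 3525 and 3048 shared. With no filter beyond 1 count, 597 fell against SD, 29 were called against HFD and 531 falls were shared, and 71.4% of calls against SD were rises. At adjusted p under 0.01 the counts were 707 and 440, 2506 diet falls, 17 against HFD, and 671 and 389 shared. The cause of these moves was not tested, except that the set and library settings use fewer or more libraries.

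Leaving out 1 SD or SZ-A 400 library in turn gave 974 to 2236 and 386 to 1559 against SD, 10 to 242 against HFD, and 919 to 2105 and 336 to 1431 shared. Without HFD replicate 8, a setting chosen after seeing the data, 148 were called against HFD and 2113 and 1325 were shared. With the replicate number as a block, 961 genes rose against SD, 21 were called against HFD and 914 rises were shared. Correlations of same-numbered SD and SZ-A 400 libraries, after subtracting group means, were 0.12, 0.21, -0.23 and 0.24 for numbers 1, 2, 5 and 7, of which the numbers 1, 2 and 7 join libraries of 1 set and the number 5 joins both sets. A pairing by number was therefore not shown, nor was its absence. Of 91 named genes called against SD, 72 stayed called without each of the 12 SD and SZ-A 400 libraries, as did 8 of 15 called against HFD, and HFD libraries were not left out in turn there. Reversed values were Fasn in set 1 (1.51 at SZ-A 400 and 1.51 in HFD, against SD), Cyp2f2 (0.52 against SD and 4.02 against HFD) and Tlcd4 (1.60 against SD) with all 43 libraries, and Il1b in HFD without SD replicate 6, with a range of -2.001 to 0.0371 over the libraries left out.

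With 34700000 to 41300000 counts per library the counting error was small beside the spread between libraries (chi-square per degree of freedom at least 31.1), and 2 SZ-A 400 libraries in set 2 limit the comparison there.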

Other observations

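Other gene groups are given beside all genes tested, of which 8.98% rose and 5.87% fell at SZ-A 400, and 24.1% rose and 19.7% fell in HFD. Of 11 leukocyte integrins, 4 rose and 0 fell against SD (median log2 fold change 1.20), against 7 and 1 in HFD. Of 12 genes of adipocyte expansion, 3 rose and 1 fell, against 5 and 2 in HFD. Of 16 preadipocyte and fibroblast markers, 2 rose and 0 fell, against 7 and 1 in HFD. Of 12 mast cell and granulocyte markers, 1 rose and 1 fell, against 1 and 2 in HFD. Of 25 respiratory chain genes, edgeR called 0 at SZ-A 400 and 6 lower in HFD.

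Of 12 smooth muscle and pericyte markers, 0 were called at SZ-A 400, while 1 rose and 4 fell in HFD. Of 8 erythroid genes, 0 were called at SZ-A 400 and 5 fell in HFD. Markers of other tissues gave few calls, with 0 of 9 ciliated and 1 of 10 duct and squamous epithelium markers lower at SZ-A 400, and 3 of each lower in HFD. Of 8 skeletal muscle markers, 1 rose and 1 fell in each comparison.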
